A study of Mus musculus with 12 samples.

Results

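Of 45082 regions of open chromatin in mouse natural killer (NK) cells, 992 were called in all 6 control libraries and in none of the 6 libraries of cells stimulated with interleukin 12 and interleukin 18 (IL-12/18). They are called closed regions here, in both genotypes of the study. The members were chosen by rank: in each library the 35110 strongest distinct intervals were kept, by the authors' −log10 q value, kept intervals of the 12 libraries were merged where they shared at least 1 bp, and a library called a region when one of its kept intervals overlapped it. The 45082 regions are those called in at least 2 libraries. The 992 members made up 2.2% of them, and since the rule used the stimulated against the control libraries, that contrast is described below and not tested. In bulk libraries, fewer cells with an open site and less opening in each cell cannot be told apart. "Closed" therefore means that a peak left the strongest 35110 of its library, not that no peak was found.

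Accessibility was measured by ATAC-seq, in which a transposase cuts open DNA and adds sequencing adapters, in NK cells from spleen. The 4 groups, with 3 libraries each, were KO cells stimulated with IL-12/18, WT cells stimulated with IL-12/18, KO control cells and WT control cells. WT cells carried the floxed Regnase-1 gene (Reg-1fl/fl) and KO cells lacked Regnase-1 in NK cells (Reg-1ΔNK). What drives the deletion, the ages of the mice, and the doses and times of the cytokines are not given in the sources used here, nor whether replicates came from separate animals, so p-values measure only the spread between these libraries, which may be technical. The lists held 42520 to 63128 distinct intervals in 11 libraries and 35110 in KO stimulated replicate 1, where the limit fell at a deposited −log10 q of 1.31, against up to 27.05 in WT stimulated replicate 3. A weak region over the lower end of Zc3h12a, the gene of Regnase-1 (chr4:125117670-125118634, mm10), had a deposited peak in 0 of 6 KO and 6 of 6 WT libraries, but the deleted part is not stated, so this is no direct check of the genotype. All 6 NK marker genes (Ncr1, Klrb1c, Eomes, Tbx21, Klrk1, Prf1) had called regions in 12 of 12 libraries, with 23 to 26 of their 32 regions called in KO stimulated, 26 in WT stimulated, 26 to 27 in KO control and 29 to 30 in WT control libraries. Of the markers of other cells named here, Cd79a, Ms4a1, Cd3g, Cd4, Cd8a, Csf1r, Lyz2 and Hbb-bs had no region, while Pax5, Cd3e, Cd3d, Spi1 and Klf1 had called regions in 12 of 12 libraries, Adgre1 in 9 and Hba-a1 in 4.

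NK cells, lymphocytes of the innate immune system, kill infected and transformed cells and secrete interferon gamma, for which IL-12 with IL-18 is a strong stimulus. Resting NK cells hold open elements bound by factors of the early and quiescent state, among them TCF-1, LEF-1, BACH2, RUNX and Krüppel-like factors, whereas cytokine signals act through STAT4, NF-kB and AP-1 factors. An ATAC-seq peak marks a stretch of DNA that a transposase can reach, typically a promoter, an enhancer or another bound element. Regnase-1 is a nuclease that cuts the messenger RNAs of many cytokine and immune genes and so limits their level.

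Sequences of the peaks themselves were not used here, because no genome sequence of the build was at hand. What can be shown are promoter windows under closed regions, which run from 250 bases before to 50 bases after a start site (RefSeq, GRCm38.p6, the assembly of mm10). In all, 45 of the 992 members overlapped 50 such windows of 47 genes, of which 29 are protein-coding. Printed are the windows of both genes of the gene lists below with a closed region over their start, Cd27 and Zc3h12d, and of the pair of long noncoding genes whose closed region had no deposited peak of any strength after stimulation, Gm39821 and Gm38795; this last pair was chosen after its values were seen. The sequences run 5′ to 3′ on the strand of the gene, and capitals mark the TCF/LEF letters CTTTGA and the RUNX letters TGTGGT on either strand (TCAAAG and ACCACA on the other).
Cd27, chr6:125236978-125237277, minus strand: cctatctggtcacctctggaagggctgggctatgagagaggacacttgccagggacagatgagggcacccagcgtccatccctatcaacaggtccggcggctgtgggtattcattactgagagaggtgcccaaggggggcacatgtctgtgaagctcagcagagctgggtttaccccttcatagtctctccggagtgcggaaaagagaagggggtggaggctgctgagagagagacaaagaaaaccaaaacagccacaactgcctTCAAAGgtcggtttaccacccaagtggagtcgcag
Zc3h12d, chr10:7832220-7832519, plus strand: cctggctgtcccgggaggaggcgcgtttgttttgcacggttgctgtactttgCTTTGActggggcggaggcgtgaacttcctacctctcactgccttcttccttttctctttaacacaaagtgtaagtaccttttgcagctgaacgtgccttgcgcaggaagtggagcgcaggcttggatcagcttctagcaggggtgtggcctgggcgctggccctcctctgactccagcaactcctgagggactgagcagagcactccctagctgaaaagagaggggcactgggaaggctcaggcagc
Gm39821, chr11:51883779-51884078, plus strand: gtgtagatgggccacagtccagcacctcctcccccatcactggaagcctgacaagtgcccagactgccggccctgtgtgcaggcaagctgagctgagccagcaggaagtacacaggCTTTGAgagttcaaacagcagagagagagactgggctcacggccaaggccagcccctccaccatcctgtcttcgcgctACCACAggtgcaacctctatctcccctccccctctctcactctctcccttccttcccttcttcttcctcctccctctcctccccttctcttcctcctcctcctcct
Gm38795, chr6:41621524-41621823, plus strand: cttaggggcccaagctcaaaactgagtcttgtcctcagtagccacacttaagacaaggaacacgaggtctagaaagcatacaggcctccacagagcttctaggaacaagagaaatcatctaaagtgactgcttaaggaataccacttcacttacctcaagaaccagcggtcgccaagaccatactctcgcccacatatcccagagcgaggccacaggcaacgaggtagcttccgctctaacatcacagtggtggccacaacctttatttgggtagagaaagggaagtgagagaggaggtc

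The Cd27 and Zc3h12d windows each held 1 TCF/LEF match, the Gm39821 window held 1 TCF/LEF and 1 RUNX match, and the Gm38795 window held neither. The control summits of the closed region fell inside the window in 6 of 6 control libraries for Zc3h12d, Gm39821 and Gm38795, and in 3 of 6 for Cd27. Over all 50 windows, CTTTGA occurred in 12 (24%, Wilson 95% interval 14.3 to 37.4), against 11.2% of the 11821 windows over regions called in all 12 libraries and 16% of all 32851 windows. TGTGGT occurred in 10 of the 50 windows (20%, 11.2 to 33.0), against 12.8% and 16.8%. For the ETS letters GGAAGT the shares were 34%, 29.6% and 23.8%, in the same order,, and for the T-box letters GGTGTGA 4%, 3.25% and 3.98%. The AP-1 letters TGANTCA occurred in 3 windows (6%, 2.06 to 16.2, against 4.84% and 7.81%), and the NF-kB letters, GGGA and TTCC with any 2 bases between them, in 0 of 50 (Wilson interval up to 7.13%, against 1.63% and 1.47%). Both strands were searched, and the motifs were counted separately whether or not they overlapped. The interval of each of these shares is wide because there are only 50 windows. Some windows of the same member overlap, so a site can be counted in more than 1 window, and the intervals leave this out. The AP-1 letters of Gm41301 and Gm34820 are the same site, as are the TCF/LEF letters of 1700097N02Rik and Dnah8. A match describes the letters of a window and is not a binding site, and most closed regions lay away from promoters.

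Closed regions were among the weaker kept peaks of the control libraries. The rule itself favours this, since a peak near the limit leaves the kept list with a smaller change in rank. Their mean rank over the 6 control libraries, with 1 for the strongest interval of a list, had a median of 25707 (quartiles 22537 and 28330), and ran from 11566 to 33652.5. Regions called in all 12 libraries had a median of 10856 on the same scale. The opened regions described below also ranked low in their own libraries, with a median of 22109 over the 6 stimulated libraries (quartiles 18360 and 25502.5). Only 10 members stood in the upper 17555 ranks in all 6 control libraries, and 797 stood in the lower part of the kept list in all 6. The members were narrow, with a median width of 883 bp. It was 986 bp for the 1625 opened regions, which show the opposite pattern (calls in every stimulated library and in no control library). For the 21089 regions called in all 12 libraries it was 1759 bp. Members and opened regions merge the kept intervals of 6 libraries and the regions called everywhere those of 12. The part of this and of peak strength in the widths was not tested. The summits of members were well placed: the SD of the summit position over the 6 control libraries had a median of 16.9 bp in members and 15.98 bp in regions called everywhere, and was 44.7 bp over the stimulated libraries in opened regions. No chromosome held most of them, with a share of 1.68% of the regions on chromosome 13 to 2.70% on chromosome X, and 0 of 18 on chromosome Y.

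The edge of the rule was crowded. A further 666 regions were called in 6 of 6 control libraries and in 1 stimulated library, 634 in 6 of 6 and 2, 634 in 5 of 6 control libraries and no stimulated library, and 688 in 4 of 6 and none. Leaving out KO stimulated replicate 1, the shortest list, the strongest peak of a member in the other 5 stimulated libraries stood a median of 9999 ranks below its weakest control peak, counting a missing peak as just beyond the end of that list. This gap was over 5000 ranks in 859 members (86.6%) and over 20000 in 44 (4.44%). With 17555 intervals kept per library, 703 regions met the rule, of which 10 of the 992 members overlapped one, and with all deposited intervals 395 did, overlapping 107 members. The members are thus those whose peaks crossed this one limit, and another limit picks mostly other regions.

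Most closed regions still had a weaker peak after stimulation. Of the 992 members, 885 (89.2%) held a deposited peak beyond the limit in at least 1 stimulated library and 107 (10.8%) held none in any. KO stimulated replicate 1 cannot show such a peak, since its list ends at the limit. In the other 2 KO stimulated libraries 234 and 501 members had a weaker peak, and in the 3 WT stimulated libraries 574, 623 and 820 had one. The lists were 42543 and 54303 intervals long in KO and 56434, 55146 and 63128 in WT stimulated cells, and longer lists held more of these peaks except between WT replicates 1 and 2. Among the first 42543 intervals of each list the counts were 234 and 178 in KO and 210, 281 and 282 in WT stimulated libraries, so that the ranges of the genotypes overlapped, and 582 members had a peak in at least 1 of these 5 shortened lists. The peaks left were weak, as their place beyond the limit fixes. Their median deposited fold over background, the authors' value within each list, was 3.21 and 3.87 in KO and 4.55, 4.72 and 5.41 in WT stimulated libraries. When a deposited peak had to cover 50% of the region, 553 members had one.

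**Figure D1:**
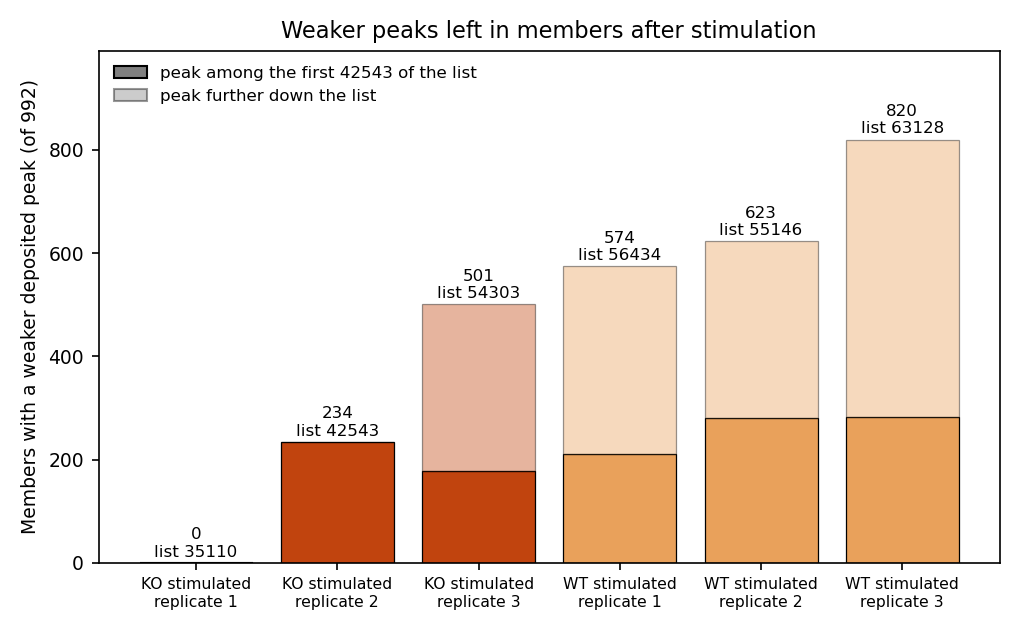
Number of the 992 closed regions that hold a weaker deposited peak in each stimulated library (bars; dark part, peaks among the first 42543 intervals of the list; pale part, peaks further down), with the length of the list above. The number runs from 0 in KO stimulated replicate 1, whose list ends at the limit, to 820 in WT stimulated replicate 3, and the dark parts lie between 178 and 282 in the other 5 libraries.

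The opened regions were described in the same way, in the control libraries. A weaker deposited peak in the control libraries was present in 953 of the 1625 opened regions (58.6%), with 645, 349 and 664 in the KO control and 180, 297 and 454 in the WT control libraries. The lists were 53258, 46971 and 52502 intervals long in KO control and 42520, 48324 and 53440 in WT control cells. The part of list length in these counts was not tested. Among closed regions, no stimulated peak of any strength was left in 8.76% of the 331 members with the best mean control rank, 11.5% of the next 330 and 12.1% of the weakest 331.

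Between genotypes after stimulation, 78 members (7.86%) had a weaker peak in 0 of 3 KO and 3 of 3 WT stimulated libraries, and 0 had the opposite pattern, which KO replicate 1 makes impossible. Over all 45082 regions the first pattern was present in 1005 (2.23%). The rule itself bears on this comparison and on the next, since members hold no kept peak in any stimulated library. At least 1 KO stimulated library had a deposited peak in 92.4% of all regions and in 56.25% of members. Without that library 78 members had a peak in 0 of 2 KO and all 3 WT libraries, against 2.56% of all regions, and 1 member had one in 2 of 2 KO and 0 of 3 WT libraries, while 145 had a peak in all 5. The list lengths named above differ between the genotypes in the same direction, and their part in this difference was not tested.

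The closed regions with the best control ranks lay at genes of varied function. The first was inside Zc3h13, which encodes a member of the complex that methylates adenosine in RNA (chr14:75318310-75319536). It had no deposited peak in the 3 KO stimulated libraries and ranked 43293, 53304 and 43322 in the WT stimulated libraries, against 12807, 12377 and 12761 in KO control and 9986, 10756 and 10709 in WT control libraries. The treatments did not overlap, as the rule requires, and the WT stimulated peaks stood far beyond the limit. The second, 12.7 kb from Usp6nl, which encodes a GTPase-activating protein of Rab5 (chr2:6309223-6310096), ranked 50989 in KO stimulated replicate 3 and 46997 and 41192 in WT stimulated replicates 1 and 3, with no peak in the other 3 stimulated libraries, against 15041, 14069 and 16100 in KO control and 8541, 10029 and 11297 in WT control libraries. The third lay in the immunoglobulin heavy chain locus (chr12:113264010-113265851), with no protein-coding gene within 50 kb. It had no peak in KO stimulated cells and ranks of 41050, 37848 and 42503 in WT stimulated cells, against 15331, 14448 and 12941 in KO control and 11517, 10060 and 10977 in WT control cells. In these 3 regions every KO control library ranked the peak lower than every WT control library. The other 7 of the best 10 included regions inside Sag (an arrestin), Psd3 (an exchange factor for Arf GTPases) and Usp48 (a deubiquitinase). Also inside their genes were those at Agap1 (a GTPase-activating protein of Arf) and Rec114 (a protein of meiotic recombination). The region of Rlf (a zinc finger protein) lay 15.7 kb outside the gene, and that of Glcci1 (named for its induction by glucocorticoids) 23.2 kb outside. All 10 kept a weaker peak in at least 1 stimulated library, and 7 did so in all 3 WT stimulated libraries.

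Of 22 genes on the gene lists with a closed region, 6 are factors of the early and quiescent state. These 6 closed regions, of 176 regions near the 20 genes of that list (3.41%), belonged to Tcf7, Lef1, Bach2, Klf3, Klf13 and Tox2. Near any protein-coding gene the share was 2.11% (871 of 41202 regions), and for all 245 list genes together 2.12% (26 of 1227), so that the lists as a whole held closed regions about as often as other genes. The same list had 6 opened regions as well (3.41%, against 3.30% near any protein-coding gene).

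At Tcf7, which encodes TCF-1, the closed region lay inside the gene (chr11:52271827-52277404). It had no peak in KO stimulated replicate 1, ranks of 41251 and 41749 in the other 2 KO stimulated libraries and 46545, 42966 and 42443 in the WT stimulated libraries, against 31487, 29773 and 26207 in KO control and 22477, 27758 and 25833 in WT control libraries. The region was 5578 bp wide, the widest of all members, and the SD of its control summits was 569 bp, so that the libraries did not call the same point in it. At Lef1, which encodes a close relative of TCF-1, the closed region was inside the gene, 4.77 kb from a start site (chr3:131117557-131118540). It had no peak in KO stimulated cells and ranks of 40404, 46285 and 52029 in WT stimulated cells, against 23830, 26463 and 32530 in KO control and 17655, 20194 and 21485 in WT control cells. KO and WT control libraries did not overlap there, but the difference did not pass the test across all regions (KO minus WT −0.71 ± 0.25 SE on the rank score explained below, limma adjusted p = 0.221). The Bach2 region (chr4:32387380-32388819), inside the gene of a repressor that holds lymphocytes in a resting state, ranked 39130 in KO stimulated replicate 3 and 40417, 35289 and 49948 in WT stimulated cells, against 25785, 23312 and 23556 in KO control and 19728, 20005 and 23631 in WT control cells. Its peak in WT stimulated replicate 2 was just beyond the limit, and KO and WT control ranks overlapped. The regions of Klf3 and Klf13 lay 28.1 and 34.0 kb from genes of Krüppel-like factors, and that of Tox2, an HMG-box factor of NK development, 38.0 kb from the gene. All 3 kept a weaker peak in all 3 WT stimulated libraries.

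Among NK maturation factors, Runx1, Runx3 and Zbtb16 had 1 closed region each (3 of 185 regions, 1.62%, against 2.11% near any gene). The list had 9 opened regions (4.86%, against 3.30% near any gene), and neither difference was tested. RUNX1 and RUNX3 are DNA-binding subunits of the core binding factor in lymphocyte development, and Zbtb16 encodes PLZF, a factor of innate lymphocytes. The Runx3 region, inside the gene (chr4:135135989-135137260), ranked 35527 in KO stimulated replicate 2 and 54682, 51639 and 57471 in WT stimulated cells, with no peak in the other 2 KO stimulated libraries, against 31115, 26487 and 27249 in KO control and 27702, 28862 and 25355 in WT control cells. The Runx1 region (chr16:92779674-92780436) lay 9.07 kb from an opened region and had control ranks of 19774 to 20057 in KO and 19975 to 23655 in WT. The Zbtb16 region kept a stimulated peak only in KO replicate 2, at rank 42476.

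Cd27, which encodes a receptor of the TNF receptor family found on less mature NK cells, had 2 closed regions. The one over its start site (chr6:125236009-125237796) had no peak in KO stimulated replicate 1 and weaker peaks in the other 5 stimulated libraries, at ranks of 36877 and 36477 in KO replicates 2 and 3 and 40597, 36767 and 35208 in WT libraries, against 27621, 30980 and 32008 in KO control and 29162, 21041 and 20738 in WT control libraries. The one 3999 bp outside the gene (chr6:125241135-125242266) had no deposited peak in any of the 6 stimulated libraries, against ranks of 33833, 28295 and 25710 in KO control and 19140, 20228 and 18275 in WT control libraries. It was the only closed region of a list gene with no stimulated peak at all, and the control groups did not overlap there (KO minus WT −0.97 ± 0.28 SE, limma adjusted p = 0.159, not past the threshold). Ccr7, the chemokine receptor for homing to lymph nodes, had a closed region 18.1 kb from the gene. It ranked 55307, 37058 and 47519 in WT stimulated cells with no peak in KO stimulated cells, against 23633, 24371 and 23121 in KO control and 20880, 18451 and 16787 in WT control cells. The homing list came to 3 of 131 regions (2.29%).

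Among cytokine receptors and signalling genes, the share of closed regions equalled that near any gene. Il12rb2 encodes a subunit of the receptor for IL-12, one of the stimulating cytokines. Its closed region, inside the gene (chr6:67339187-67340346), ranked 39300 in KO stimulated replicate 3 and 38258 and 38639 in WT stimulated replicates 2 and 3, with no peak in the other 3 libraries, against 23047, 26546 and 21326 in KO control and 25939, 26890 and 21945 in WT control cells. Jak1, a kinase of cytokine receptors, had 1 closed region and Smad7, the inhibitory SMAD of TGF-beta signalling, had 2 (the list of cytokine receptors and JAK-STAT genes, 4 of 190 regions, 2.11%). The stronger Smad7 region (chr18:75377099-75378928) had the best mean control rank of any list gene, 15298. It ranked 42134 in KO stimulated replicate 3 and 42311, 41408 and 50827 in WT stimulated cells, against 16124, 12827 and 17499 in KO control and 17868, 13943 and 13526 in WT control cells. Cd226, which encodes the activating receptor DNAM-1, had the only closed region of the 113 at NK receptor genes (0.885%). It had no peak in KO stimulated cells and ranks of 43255 and 45930 in WT stimulated replicates 2 and 3, against 21406, 21055 and 26745 in KO control and 18744, 19019 and 18694 in WT control cells.

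Effector genes held closed regions about as often as other genes (2.11%). Rab27a, a GTPase needed for granule release, had the only closed region of the cytotoxic granule list (1 of 52, 1.92%). The cytokine list had 1 region near Fasl, the death ligand, and 1 near Xcl1, a chemokine of NK cells (2 of 93, 2.15%). The Fasl region (chr1:161798151-161800013, 9.66 kb away) had no peak in KO stimulated cells and ranks of 41900, 40083 and 46429 in WT stimulated cells, against 33155, 25171 and 31563 in KO control and 24372, 21091 and 19425 in WT control cells. The NF-kB list had both of its closed regions at Nfkb1 (2 of 106), and the AP-1 list had 0 of 71. In the RNA decay list the closed region was the one over the start of Zc3h12d, a relative of Regnase-1 also known as Regnase-4 (1 of 38). It ranked 41117 and 43967 in KO stimulated replicates 2 and 3 and 46461, 49805 and 48406 in WT stimulated cells, against 29856, 25183 and 24720 in KO control and 31896, 29513 and 29525 in WT control cells. Markers of other cell types included Pax5, the B cell factor, with 1 closed region of the list's 18, and Trat1, an adaptor of the T cell receptor, with 2 of the list's 31. Myeloid and erythroid marker lists had 0 of 17 and 0 of 8. Cd79a and Ms4a1 of B cells had no region, and of the 6 regions of Pax5 3 to 4 were called in KO stimulated, 4 to 5 in WT stimulated, 3 to 4 in KO control and 3 in WT control libraries.

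**Figure D2:**
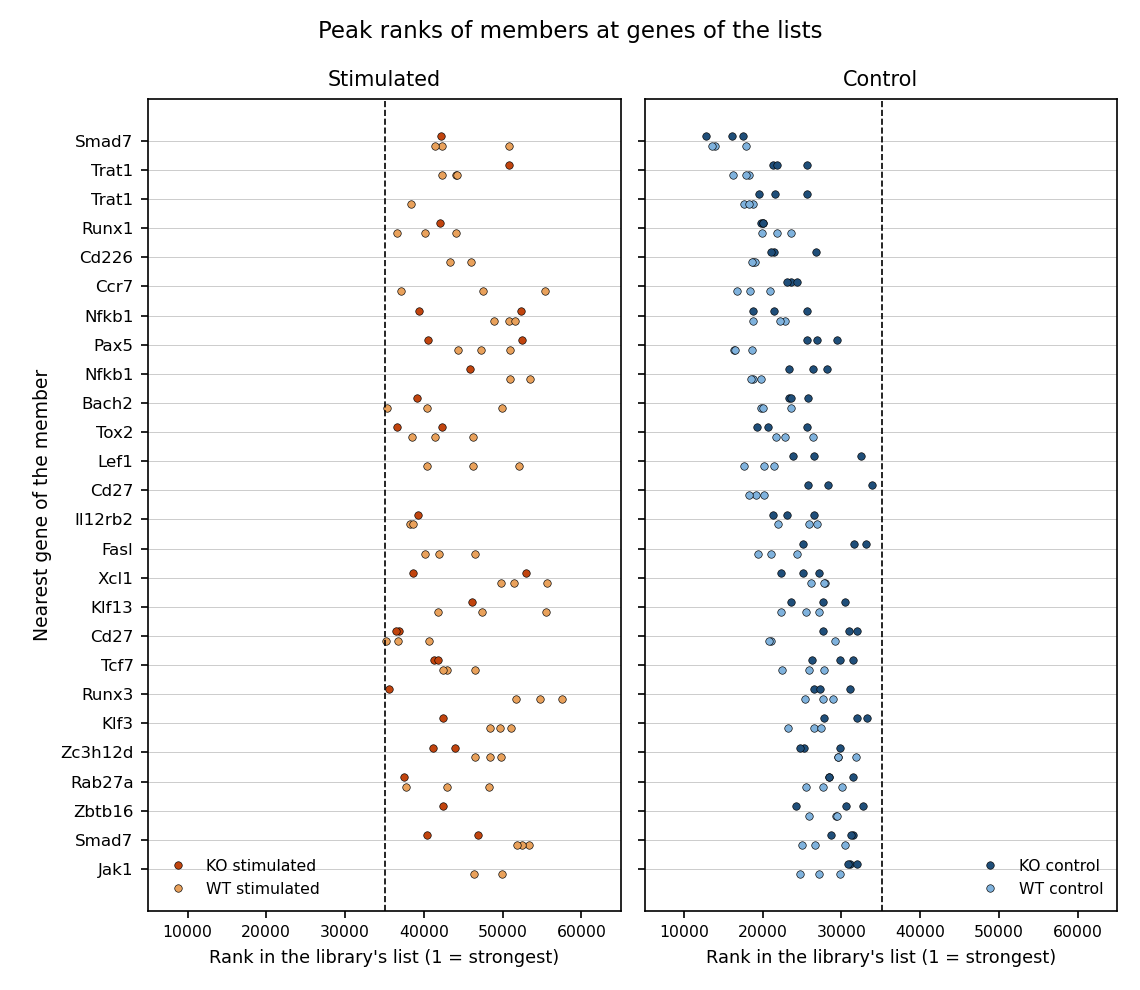
Rank of the peak in each library for the 26 closed regions of list genes, ordered by mean control rank (left, stimulated libraries in their full lists; right, control libraries; each point is 1 library, and a missing point means no deposited peak). The dashed line is the limit of 35110 intervals; the stimulated peaks that remain stand between ranks 35208 and 57471, and 25 of the 26 regions have at least 1.

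The T cell and B cell markers bear on a wider set of loci. Within the antigen receptor loci, a set chosen after the members were seen, 9 of 160 regions were closed (5.63%, against 2.2% of all regions), namely 5 of 78 in Igh, 3 of 47 in Tcra, 1 of 6 in Igk, and 0 of 16 in Tcrb and of 13 in Tcrg. NK cells do not assemble these receptors, but parts of the loci are open in lymphocytes in general. Of the 5 Igh regions, 2 had no stimulated peak in any library. The strongest Tcra region (chr14:54101922-54103414) ranked 45387 in KO stimulated replicate 3 and 53074, 37144 and 48625 in WT stimulated cells, against 18108, 18442 and 21185 in KO control and 13185, 14415 and 14393 in WT control cells. In the same libraries Cd79a, Ms4a1, Cd3g, Cd4 and Cd8a had no called region, while Cd3e and Cd3d had 1 each in all 12. Whether a small number of B or T cells adds to these peaks was not tested.

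Closed regions were spread thinly over genes. The 871 members within 50 kb of a protein-coding gene belonged to 814 genes, of which 762 had 1, 47 had 2 and 5 had 3. Those with 3 were Agap1, Sorl1 (a sorting receptor), Slc39a11 (of a zinc transporter family), Spata48 and Grik4 (a glutamate receptor subunit). The next 10 by the mean control rank of their closed regions, with 2 each, were Slc5a11 (a sodium-coupled solute transporter), Map3k14 (the NF-kB inducing kinase NIK), Trat1, Tmem123, Ly86 (MD-1, a partner of the receptor RP105), Stim2 (a calcium sensor of the endoplasmic reticulum), Col15a1 (a collagen), Nfkb1, Smad7 and Mrvi1. These 15 genes had 35 closed regions, of which 8 lay outside the assigned gene. Among those 8 were regions 49.6 and 35.3 kb from Slc39a11 and 13.4 and 33.1 kb from Ly86. Of the 814 genes, 653 (80.2%) also had a region called in all 12 libraries, against 79.4% of all genes with a region.

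At Sorl1 the 3 closed regions differed in what was left. The one at chr9:42028582-42029604 had no peak in KO stimulated cells and ranked 39754, 39209 and 38128 in WT stimulated cells, against 15457, 15395 and 14201 in KO control and 20443, 16751 and 16021 in WT control cells. The one at chr9:42038627-42039526 had no peak in any stimulated library, against 31331, 28378 and 34854 in KO control and 22831, 22427 and 22960 in WT control cells. So at regions 9022 bp apart the KO peak stood above the WT peak in the control cells at one region and below it at the other, without overlap in either case, and neither difference passed the test (KO minus WT 0.20 ± 0.10 SE and −1.14 ± 0.37 SE, limma adjusted p = 0.373 and 0.195). At Map3k14 the stronger closed region (chr11:103219892-103220986) lay inside the gene, 128 bp from its lower end, and overlapped the long noncoding gene Gm34823. It ranked 49060 in KO stimulated replicate 3 and 51593, 45840 and 53634 in WT stimulated cells, against 18626, 20326 and 20421 in KO control and 15193, 15970 and 16654 in WT control cells. Map3k14 and Nfkb1 are both genes of NF-kB signalling, but Map3k14 belongs to the non-canonical branch.

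Some closed regions lay together. The densest stretch had 7 within 974 kb on chromosome 5 (chr5:112253068-113227250), at Crybb1, Asphd2, Sez6l, Grk3, 2900026A02Rik and Tmem211. Sorl1 and Grik4, both on chromosome 9, had 6 within 832 kb, and the nearest opened region was over 1000 kb from each. On chromosome 11 a stretch of 514 kb had 6, assigned to Spata48, 4930512M02Rik and Grb10, and Ikzf1, the gene of the lymphoid factor Ikaros, lies between them (chr11:11684962-11772930). Ikzf1 was the closest gene of 15 regions, of which 10 had calls in every library and 0 were closed. The closed region nearest to it, 43.9 kb away and assigned to 4930512M02Rik, had no stimulated peak in any library, against ranks of 28495, 32762 and 34252 in KO control and 27321, 21773 and 22277 in WT control cells. Over all members, 31 (3.13%) had another member within 10 kb and 118 (11.9%) within 50 kb, close to the 2.60% and 10.6% of regions called everywhere that had a member that near.

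The share of closed regions with an opened neighbour was below that of regions called everywhere, while by assigned gene the shares ran the other way. Of the members, 19 (1.92%) lay within 10 kb of an opened region, against 4.06% of regions called in all 12 libraries, and 107 (10.8%) within 50 kb, against 14.2%. Of the 814 genes with a closed region, 93 also had an opened one, which is 11.4% of these genes and 8.14% of the 1142 genes with an opened region. Among all 14320 genes with a region, 7.97% had an opened one and 5.68% a closed one, and neither difference was tested. Those with the most of both were Sik3 (a salt-inducible kinase, 1 closed and 4 opened), Nek6 (a mitotic kinase, 1 and 3), Nfkb1 (2 and 2), Sgms1 (a sphingomyelin synthase, 1 and 3), Arhgap26 (a GTPase-activating protein, 1 and 3), and Raph1, Pkib, Iqsec1, Evl and Myo10 (1 and 2 each). At Nfkb1, the precursor of the NF-kB subunit p50, one closed region (chr3:135590267-135591061) ranked 45788 in KO stimulated replicate 3 and 53507 and 50985 in WT stimulated replicates 1 and 3, against 23381, 28186 and 26412 in KO control and 18794, 18532 and 19800 in WT control cells. The other (chr3:135609891-135611142) kept a peak in 5 stimulated libraries, at 39341 and 52383 in KO and 50861, 51580 and 48950 in WT, against 21453, 18782 and 25648 in KO control and 18795, 22852 and 22163 in WT control cells. The closed and opened regions of this gene lay 24.3 kb or more apart. The Raph1 region (chr1:60482598-60483551), inside the gene of lamellipodin, had no stimulated peak in any library, against ranks of 21946, 31151 and 19483 in KO control and 13448, 14826 and 14944 in WT control cells.

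Closed regions lay mostly away from gene ends. Within 1 kb of either end of a protein-coding gene were 87 members (8.77%, Wilson 95% interval 7.17 to 10.7), against 4.55% of opened regions (3.64 to 5.68) and 45.6% of regions called in all 12 libraries (45.0 to 46.3). Inside a gene body and further from its ends were 52.3% of members, 49.1% of opened and 31.3% of the regions called everywhere. Over 50 kb from any protein-coding gene were 121 members (12.2%), against 16.3% and 5.88%. The median distance to a start site was 18.2 kb for members, 21.8 kb for opened and 4.11 kb for regions called everywhere, without chromosome 18, whose start sites were not used here. Since wider regions reach a gene end more easily, the strongest summit was also used in place of the region, and then 6.45% of members (5.08 to 8.15), 2.83% of opened regions (2.13 to 3.76) and 40.5% of the regions called everywhere (39.9 to 41.2) lay within 1 kb. The intervals of members and opened regions did not overlap in either count. These intervals cover counting error only, and regions are not replicates of a condition.

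**Figure D3:**
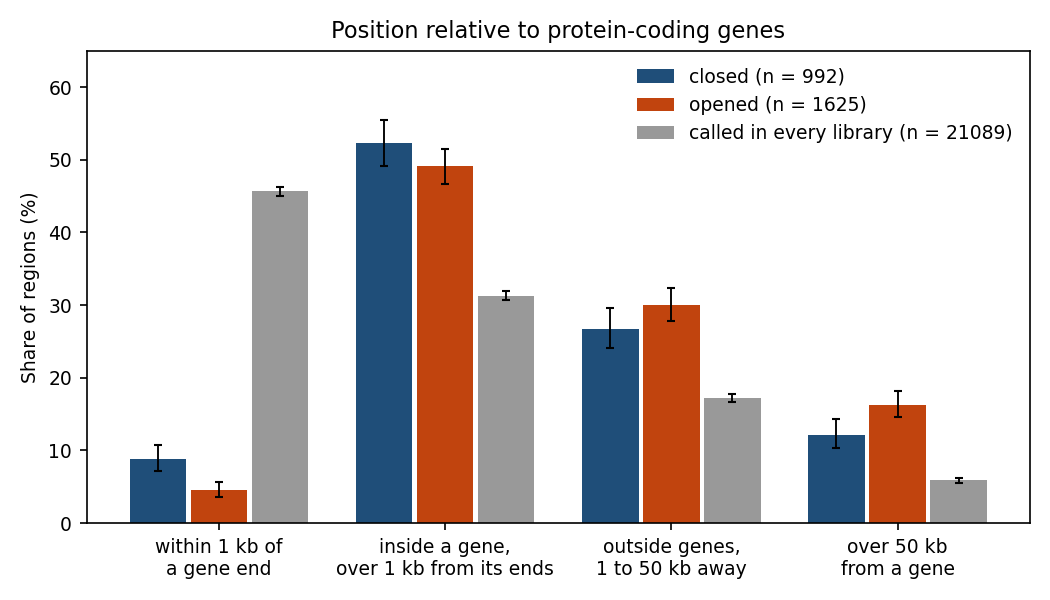
Share of closed, opened and constantly called regions by position relative to protein-coding genes (bars; error bars, Wilson 95% intervals). Closed regions are within 1 kb of a gene end in 8.77% of cases, between opened regions (4.55%) and those called in every library (45.6%).

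The control cells of the genotypes were compared next, a contrast that the rule did not use. For each of the 27334 regions called in all 6 control libraries, the rank within the kept list was turned into a normal score (0 for the middle of the list, higher for a stronger peak) and KO minus WT was tested with limma, with Benjamini-Hochberg adjustment over all 27334 regions. As a description, closed regions tended to rank weaker in KO control cells: the difference had a median of −0.20 (quartiles −0.44 and 0.05) in the 992 members and 0.00 in all regions tested, and 695 members (70.1%) were below 0, against 49.8% of all. The median rank of the members was 26464, 26113 and 27250 in the KO control libraries and 24715, 23974 and 23832 in the WT control libraries, without overlap. In 271 members (27.3%) every KO control library ranked the peak weaker than every WT control library, and in 37 (3.73%) every one ranked it stronger.

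Past an adjusted p of 0.05 were 20 members, all lower in KO, whereas over all regions tested 0.307% were called lower and 0.252% higher. No member was called higher by limma (0 at the adjusted threshold, 37 at an unadjusted p under 0.05, against 279 lower at that level). The calls depended on every library: without KO control replicate 2 or WT control replicate 1, 2 members passed, and without any of the other 4 control libraries none did, with 235 to 305 members lower at an unadjusted p under 0.05. The share of members below 0 stayed between 66.9% and 72.5% over these 6 fits. On the log2 scale of the deposited fold plus 1, quantile normalized, 99 members were called lower and 5 higher, whereas 0 passed when regions called in at least 4 of 6 control libraries were tested, and 0 with the replicate number as a block.

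The 10 largest differences past the threshold began with Zfr2 (chr10:81248918-81250231), inside the gene of a zinc finger RNA-binding protein. Its region ranked 34088, 32740 and 34232 in KO control and 22456, 24536 and 23489 in WT control libraries (KO minus WT −1.34 ± 0.13 SE, limma adjusted p = 0.0338). Next came Acaa2, a thiolase of fatty acid oxidation, with a region 7.53 kb from the gene (chr18:74813734-74815058) that ranked 33519, 33036 and 33100 in KO control and 21378, 23083 and 20481 in WT control libraries (−1.31 ± 0.08 SE, limma adjusted p = 0.0265). In Aim2, a sensor of cytosolic DNA (chr1:173439923-173441779), the ranks were 32273, 32705 and 32809 in KO control and 19536, 25544 and 22260 in WT control libraries (−1.10 ± 0.12 SE, limma adjusted p = 0.0399). In these 3 regions the KO control libraries lay near the end of the kept list and the WT control libraries far above it. The others, in order, were at Qtrt1 (a tRNA-guanine transglycosylase subunit), Rpp30 (a subunit of RNase P), Wnt11 (a Wnt ligand), a region with no gene within 50 kb (chr5:111810110-111810946), Adamts9 (a secreted protease), Pax5 and Pdcd1lg2 (the checkpoint ligand PD-L2). The Pdcd1lg2 region, inside the gene (chr19:29466901-29468089), ranked 30949, 29347 and 29591 in KO control and 19361, 21844 and 22140 in WT control libraries (−0.80 ± 0.09 SE, limma adjusted p = 0.0399). After stimulation it had no peak in KO cells and ranks of 45742, 44191 and 39724 in WT cells. The Pax5 region (chr4:44672105-44673429) ranked 26938, 29460 and 25656 in KO control and 16298, 18703 and 16469 in WT control libraries (−0.81 ± 0.11 SE, limma adjusted p = 0.0474). Of the list genes, Pax5 was the only one with a member past the threshold.

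**Figure D4:**
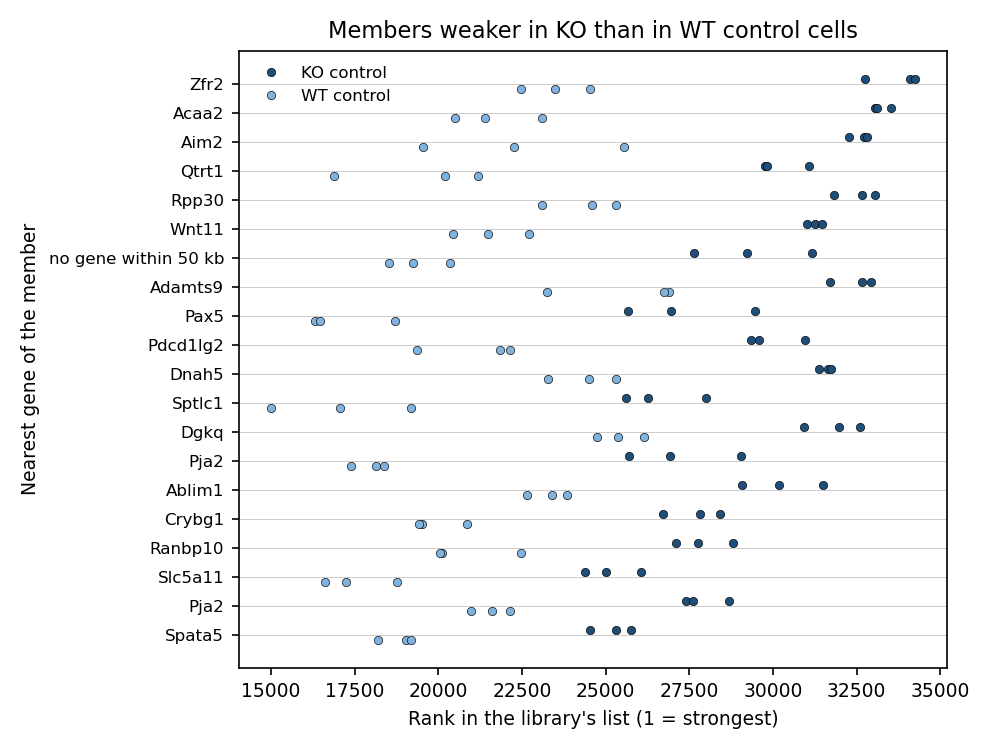
Rank of the peak in the 3 KO control and 3 WT control libraries for the 20 closed regions past the threshold, ordered by the size of the difference (each point is 1 library; a higher rank number is a weaker peak). In every one of the 20 regions the KO points lie to the right of the WT points.

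The genotype difference at rest is also given by the number of stimulated libraries with a call, as a description, since the rule chose the members on those calls and 3 of the 6 libraries are KO. Among regions called in all 6 control libraries, the median of KO minus WT was −0.20 for those with 0 calls among the 6 stimulated libraries, which are the members, −0.10 for 1 call, −0.07 for 2, −0.07 for 3, −0.05 for 4, −0.01 for 5 and 0.01 for 6. The share below 0 was 70.1% for 0 calls, 64.1% for 1 and 47.1% for 6. The quartiles of neighbouring classes overlapped widely. The stimulated calls and the control scores come from different libraries. The members had weaker control peaks than the regions called everywhere (median mean rank 25707 against 10856), and fewer regions of the NK markers were called in the KO than in the WT control libraries (26 to 27 against 29 to 30 of 32). The part of either in this order was not tested.

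**Figure D5:**
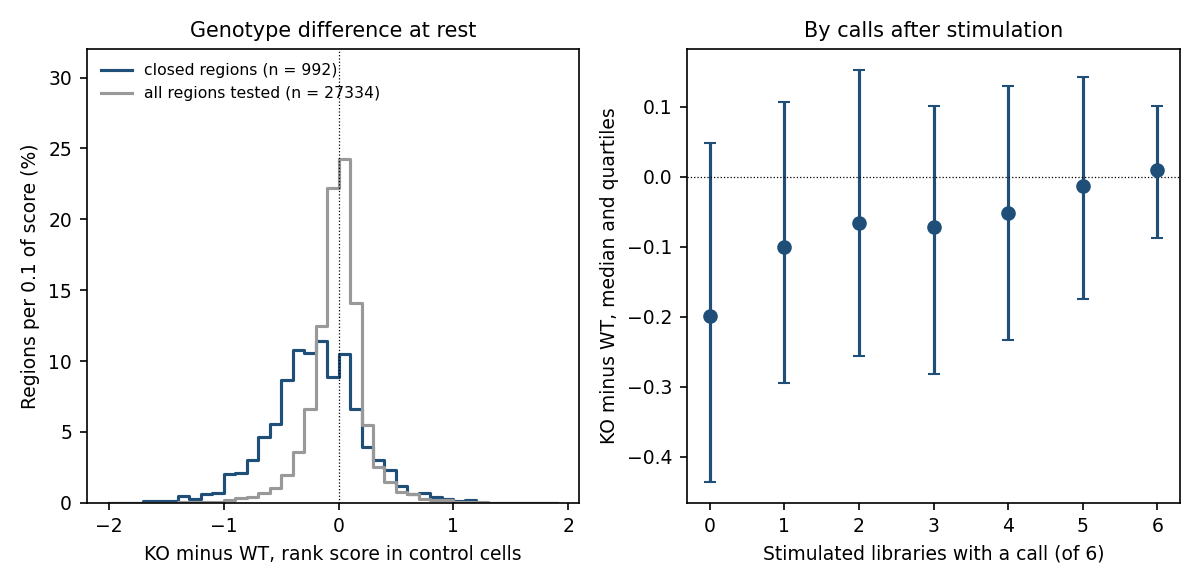
Left, distribution of KO minus WT in control cells on the rank score, for the 992 closed regions and for all 27334 regions tested (share of regions per 0.1 of score). Right, median and quartiles of the same difference by the number of stimulated libraries with a call; the median runs from −0.20 at 0 calls, which are the closed regions, to 0.01 at 6.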

How the data were processed

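ATAC-seq was run on 12 libraries of splenic NK cells, 3 per group, with replicate numbers from the titles. The authors deposited 1 peak list per library, called separately in each; per the submitters' processing notes MACS2 2.1.1.20160309, Bowtie2 2.3.4.1, deepTools 3.4.2, SAMtools 1.15.1, cutadapt 4.1 and FastQC 0.11.9 were used, with build mm10. Any shift of reads for the transposase is among the steps not given in the sources used here. Per interval the deposited fold is a ratio of pileup to background, and the deposited score, −log10 q and −log10 p values belong to the same single peak. They served only to rank and describe peaks within a list; the fold and q orders were the same in every list. Read depth is unknown.

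Summits called in 1 interval were joined, chromosomes 1 to 19, X and Y were used, and each list was reduced to its 35110 strongest intervals, the length of the shortest. Intervals tied at the limit (550 to 1375 per library) were taken in file order. Each region took the closest protein-coding gene, at most 50 kb away (RefSeq, GRCm38.p6). KO minus WT at rest was fitted with limma 3.58.1 (R 4.3.3) without a replicate block and tested on simulated data; the rest used Python 3.11.15, numpy 2.4.6, pandas 2.3.3, scipy 1.17.1 and statsmodels 0.14.6. The planned motif search around peak summits needs a genome that was not used here, and promoter windows took its place. Named genes are the 15 with the most members, the 10 members with the best control ranks, list genes with a member, the 10 largest genotype differences past the threshold, and the 10 genes with the most closed and opened regions together; others are named as chosen after their values were seen. The members and the gene lists were chosen with earlier results of these data known. Some marker genes are not reported here.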

Additional observations from a re-analysis of the deposited data

How the results depend on the processing

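The count of closed regions was 992, and 703 to 1201 under every alternative but all deposited intervals, which gave 395. Leaving out single libraries gave 1031 to 1201. A similar count can hide other members. When a call had to cover 50% of the region, 819 regions met the rule, and they overlapped only 502 of the 992 members. With 500 bp windows around the summits, 1121 regions did, overlapping 985 members. Intervals tied at the limit, left out or all kept (alternatives chosen after seeing the data), gave 1024 and 1003. Weaker stimulated peaks were found in 553 members when peaks had to cover 50% of the region, in 582 with lists of equal length, and in 789 to 885 without single libraries. Members lower in KO at rest numbered 0 with regions called in at least 4 of 6 control libraries (235 at an unadjusted p under 0.05 in limma), 99 on the log2 fold scale (5 higher), 18 after cyclic loess, which was chosen after seeing the data, and 0 to 2 without single libraries; members called higher stayed at 0 in all of these but the log2 fold scale. All regions called numbered 153, with 0 in at least 4 of 6 libraries, 1194 on the log2 fold scale, 163 after cyclic loess and 0 to 21 without single libraries. The share of members below 0 was 66.9% to 72.5% without single libraries and 67.1% after cyclic loess. The cause of these changes was not tested.

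With the replicate number as a block, 0 members and 0 regions in all passed at rest, with 303 members lower and 44 higher at an unadjusted p under 0.05 in limma. The correlations do not settle whether the numbers pair the samples. Same-numbered KO and WT control libraries correlated with 0.138, 0.0652 and 0.0172 in their deviations. The first of these was the highest of all pairs, and WT replicate 2 correlated best with KO replicate 2. However, WT replicate 3 also correlated best with KO replicate 2 (0.0797).

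Gene ends lay within 5 kb of 24.4% of members, and by summit within 1 kb of 6.45%. Gene lists held 22 and 30 members with 20 and 100 kb in place of 50 kb, against 26. In shorter promoter windows, TCF/LEF letters were in 22% of those over members (12.8 to 35.2). They were in 6.65% of those over regions called everywhere and 10.3% of all. In the same order, RUNX letters were in 16% (8.34 to 28.5), 8.04% and 11.3%, and ETS letters in 28% (17.5 to 41.7), 23.6% and 17.9%. T-box letters were in 4%, 2.04% and 2.57%, AP-1 letters in 4%, 3.13% and 5.35%, and NF-kB letters in 0%, 1.22% and 1.05%. Only the TCF/LEF interval lay above both other shares, and in the longer windows its interval (14.3 to 37.4) included the 16% of all windows. The q value at the limit differed between libraries, and a region without a peak in a short list is not shown to be closed.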
